A study of Mus musculus with 8 samples.

Results

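Chromatin accessibility was examined at 10 genes of integrins and adhesion molecules in regulatory T (Treg) cells that had lost Flcn, the gene of folliculin. The genes were Itgae, Itgb7, Itga4, Itgb1, Itgal, Itgb2, Itgav, Alcam, Cd6 and Cd44. Their peaks were chosen by position: each peak went to the protein-coding RefSeq gene whose span lay nearest, at most 50000 bp away, which gave 85 of the 57199 peaks in the series. The peak farthest from its gene within that limit lay 46.4 kb from Cd44 (mean 29.3 CPM in Flcn KO and 35.3 CPM in WT), and the nearest one left out lay 55.2 kb from Cd44 (36.5 CPM in Flcn KO and 43.1 CPM in WT). The genes were proposed with results of this same comparison known, so counts of changed members, and the adjusted p-values beside single peaks, describe the fit over all peaks and are no support for a statement about the genes as a group.

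The assay was ATAC-seq, which uses a transposase to cut and tag open DNA. The Flcn KO group held 4 libraries of Treg cells from mixed bone-marrow chimeras with Foxp3Cre Flcn fl/fl donor cells. In these, Cre recombinase driven by Foxp3 is meant to delete the floxed gene in Foxp3-expressing cells. The WT group held 4 libraries from chimeras with wild-type donor cells. In both groups the cells were sorted from the spleen as CD4+, CD45.2+ and CD45.1-negative with a yellow fluorescent Foxp3 reporter. The labels do not give the age of the mice, the host strain, or whether the WT donors carried Cre. Nothing in the labels ties a Flcn KO library to a WT library.

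Integrins are receptors made of 1 alpha and 1 beta chain that bind matrix or counter-receptors on other cells and can be switched to a high-affinity state from inside the cell. Treg cells use them to enter tissues, to be retained there and to hold antigen-presenting cells. The chain encoded by Itgae, CD103, pairs with that of Itgb7 to form a receptor that binds E-cadherin on epithelium. Itga4 pairs with Itgb7 for homing to gut vessels or with Itgb1 for binding VCAM-1, and Itgal pairs with Itgb2 as LFA-1, which binds ICAM proteins. Itgav pairs with several beta chains and takes part in the activation of TGF-beta. Alcam encodes CD166, an immunoglobulin-family adhesion molecule that binds itself and CD6, its scavenger-receptor partner on T cells, and Cd44 encodes the hyaluronan receptor that marks activated and effector T cells.

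The libraries held 2723344 to 5111728 counts in Flcn KO and 3986331 to 4914976 in WT, of which the member peaks took 0.12% to 0.134% in Flcn KO and 0.12% to 0.14% in WT. Values are normalised counts in CPM, scaled by TMM library sizes. In these bulk libraries, fewer cells with an open site and less opening per cell cannot be told apart. At Flcn itself, 2 of 4 peaks were tested and neither was called (log2 fold changes of -0.57 and -0.28, lowest edgeR adjusted p = 0.463). Of the 2 Flcn peaks untested for low counts, the first had 3.13, 1.07, 1.99 and 6.1 CPM in Flcn KO, against 0, 0.446, 0 and 0 CPM in WT, and the second 0.391, 2.4, 4.48 and 8 CPM in Flcn KO, against 0, 0, 0.51 and 0 CPM in WT. Flcn KO was higher at both, with no overlap at the first and Flcn KO replicate 1 within the WT range at the second. These peaks do not check the deletion, since the labels do not say which part is removed. Peaks inside or within 1000 bp of Treg markers summed to 824 to 977 CPM in Flcn KO and 810 to 882 CPM in WT, with 4 of 5 markers holding a peak, Foxp3 among them and Tnfrsf18 without one. For 5 B cell markers the sums were 19.8 to 34.0 CPM in Flcn KO and 22.9 to 32.4 CPM in WT, with no peak at Ms4a1 or Cd79b. For 4 myeloid markers they were 1.99 to 4.69 CPM in Flcn KO and 1.34 to 4.57 CPM in WT, all from Cd14, with none at Lyz2, Csf1r or Adgre1. For 2 CD8 T cell markers they were 16 to 35.8 CPM in Flcn KO and 18.1 to 29 CPM in WT. For NK cell markers they were 1.52 to 3.48 CPM in Flcn KO and 5.1 to 8.92 CPM in WT, all from Klrb1c with none at Ncr1, so these did not overlap and their part in the results was not tested. All 5 T cell markers held a peak, with sums of 128 to 168 CPM in Flcn KO and 132 to 170 CPM in WT.

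A promoter entry existed for 6 of the 10 genes (Itgb7, Itga4, Itgb1, Itgav, Alcam and Cd44), and in each a peak covered the RefSeq start. The 3 most accessible of these starts belonged to Alcam, Itgav and Itga4. Their 250 bases upstream of the start are shown because the start-site peaks are set beside other peaks of the same genes in what follows. Sequences are from RefSeq, build GRCm38.p6, read 5′ to 3′ along the gene's strand, and capitals mark GGGCGG, the SP/KLF motif, on either strand.
Alcam, chr16:52453082-52453331, minus strand: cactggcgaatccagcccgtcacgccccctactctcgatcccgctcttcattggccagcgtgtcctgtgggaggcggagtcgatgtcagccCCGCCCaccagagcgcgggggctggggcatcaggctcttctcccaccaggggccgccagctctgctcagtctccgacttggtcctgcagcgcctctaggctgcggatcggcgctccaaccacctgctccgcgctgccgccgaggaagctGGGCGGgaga
Itgav, chr2:83724147-83724396, plus strand: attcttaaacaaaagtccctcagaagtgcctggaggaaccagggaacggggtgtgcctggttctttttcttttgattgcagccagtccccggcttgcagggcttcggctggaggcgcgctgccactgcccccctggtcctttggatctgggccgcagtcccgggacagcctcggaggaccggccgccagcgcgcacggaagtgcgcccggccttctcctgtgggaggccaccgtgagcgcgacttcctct
Itga4, chr2:79255176-79255425, plus strand: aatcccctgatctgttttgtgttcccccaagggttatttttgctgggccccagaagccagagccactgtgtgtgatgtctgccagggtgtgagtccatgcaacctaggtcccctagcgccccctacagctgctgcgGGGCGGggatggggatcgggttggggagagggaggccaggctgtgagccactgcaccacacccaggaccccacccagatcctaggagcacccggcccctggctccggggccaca
The Alcam stretch held 2 such matches, the Itga4 stretch 1 and the Itgav stretch 0, while 32.7% of all 32851 promoter stretches of this length in the table held at least 1. The other motifs searched on both strands were AP-1 (TGANTCA, in 6.75% of all stretches), RUNX (TGTGGTT, 4.4%), ETS (CCGGAAG, 6.91%), the E-box (CACGTG, 6.02%), forkhead (TGTTTAC, 3.17%) and STAT (TTCNNNGAA, 7.02%), and these letters were not in the 3 windows. The 2 Alcam matches did not overlap each other. The G and C content was 69.2% for Alcam, 64.4% for Itgav and 64% for Itga4, against a median of 52.4% over all stretches. Alcam had 22 CpG dinucleotides in its stretch, Itgav 18 and Itga4 6, which was also the median over all stretches.

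Of the 85 member peaks, 83 had enough counts to be tested for a difference between Flcn KO and WT by edgeR's quasi-likelihood test over all 47859 tested peaks. Accessibility was called higher in Flcn KO at 1 of them, inside Itgav, and lower at 3, all assigned to Alcam, while 79 did not pass the Benjamini-Hochberg adjusted threshold of 0.05. Over all tested peaks 2.37% were called, 1.35% higher and 1.02% lower, and among the members 4.82% were called. Without Alcam, 1 of 74 tested member peaks was called (1.35%). At an unadjusted p under 0.05, 5 member peaks were higher and 8 lower, beside 6.87% and 5.99% of all tested peaks. The Flcn KO and WT libraries did not overlap at 2 higher and 9 lower member peaks, where 4.03% and 3.56% of all tested peaks did so (7.59% in either direction). The median log2 fold change was -0.02 over the 83 members and 0.00 over all tested peaks, with 46 of 83 members and 49.4% of all tested peaks below 0.

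**Figure D1:**
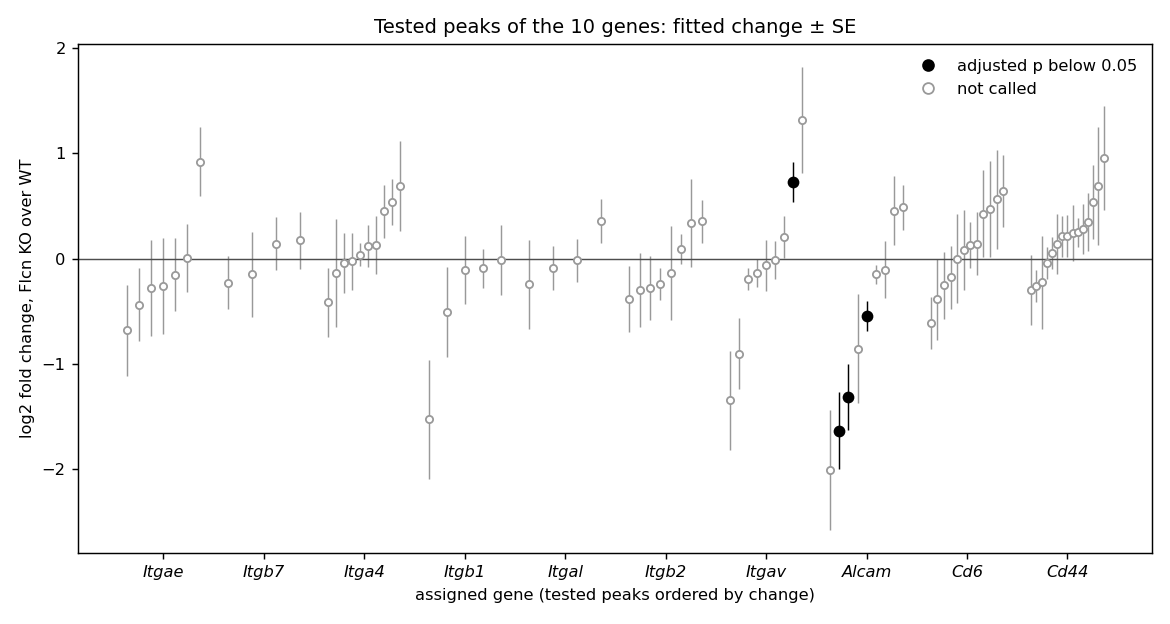
Log2 fold change (Flcn KO over WT) of each of the 83 tested peaks with its standard error, grouped by assigned gene; filled points passed an adjusted p of 0.05. The 4 filled points are 3 lower Alcam peaks and 1 higher Itgav peak, and the other 8 genes hold open points alone, which for Itgb1 all lie below 0.

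The calls changed when single libraries were left out, among the members and over all tested peaks. Without WT replicate 2, 0 of the 83 member peaks then tested were called. Over all tested peaks, that setting gave 217 lower and 448 higher calls, against 489 and 644 with every library. Without Flcn KO replicate 1 the 4 member calls held and 2 further Alcam peaks joined them. All tested peaks then gave 934 lower and 863 higher calls. Without Flcn KO replicate 3, or without WT replicate 1 or 3, the Itgav call also ended. WT replicate 2 was the highest WT library at 9 of 10 Alcam peaks, beside 22 of the 75 other member peaks and 25.3% of all tested peaks. Flcn KO replicate 1 was the highest Flcn KO library at 7 of 10 Alcam peaks, beside 15 of the 75 others and 26.2% of all tested peaks. The part these libraries play in the Alcam values was not tested beyond the values without each of them, which stand with each peak.

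Among the integrin alpha chains, Itgav, whose product forms receptors for RGD-containing ligands such as latent TGF-beta, carried the called peak. That peak, at 83745239 to 83745679 of chromosome 2, lies inside the gene with its centre 21.1 kb downstream of the start. It had 25, 21.4, 31.8 and 20.6 CPM in Flcn KO replicates 1 to 4, against 14.5, 14.7, 13.0 and 17.7 CPM in WT replicates 1 to 4. Every Flcn KO library lay above every WT library. Accessibility rose 1.66-fold in Flcn KO (edgeR log2 fold change 0.73, SE 0.19, adjusted p = 0.0315). Without WT replicate 2 its adjusted p was 0.0983 and without Flcn KO replicate 3 it was 0.191, with log2 fold changes of 0.72 and 0.58; over all alternatives the change lay between 0.58 and 0.81 and the adjusted p between 0.0256 and 0.191.

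At the next peaks inside Itgav, the values pointed the other way. The peak centred 31.1 kb downstream of the start had 0.391, 2.40, 2.49 and 3.05 CPM in Flcn KO, against 3.53, 6.69, 4.08 and 5.90 CPM in WT. These libraries did not overlap either, but the peak was not called (edgeR log2 fold change -1.35, SE 0.47, adjusted p = 0.143), and its lowest library held 2 counts. The next peak, centred 38 kb downstream, averaged 4.39 ± 2.06 CPM in Flcn KO and 8.45 ± 2.46 CPM in WT (SD, n = 4 each; log2 fold change -0.90, SE 0.34, adjusted p = 0.185). A peak 14.3 kb upstream of the start averaged 4.20 ± 2.33 CPM in Flcn KO and 1.70 ± 0.938 CPM in WT (log2 fold change 1.31, SE 0.50, adjusted p = 0.201). The peak farthest inside the gene, centred 47.2 kb downstream, averaged 20.1 ± 2.26 CPM in Flcn KO and 17.3 ± 3.99 CPM in WT. Its fitted change had the sign of the called peak (log2 fold change 0.21, SE 0.20, edgeR adjusted p = 0.746). None of these peaks passed the threshold, and the Itgav locus held 1 call in 9 tested peaks.

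The start-site peak of Itgav, at 83723804 to 83724748, covers the whole stretch printed above. It had 89.2, 74.8, 90.0 and 74.7 CPM in Flcn KO, against 105, 96.8, 90.8 and 85.1 CPM in WT. The groups overlapped, since 2 Flcn KO libraries lay above the lowest WT library. The log2 fold change was -0.20 (SE 0.11, 95% interval -0.40 to 0.01, edgeR adjusted p = 0.455). The other highly accessible Itgav peak, 20.9 kb outside the gene, averaged 74.0 CPM in Flcn KO and 81.6 CPM in WT. The gene's most accessible peaks and its called peak thus had fitted changes of opposite sign, and the difference between them was not tested.

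**Figure D2:**
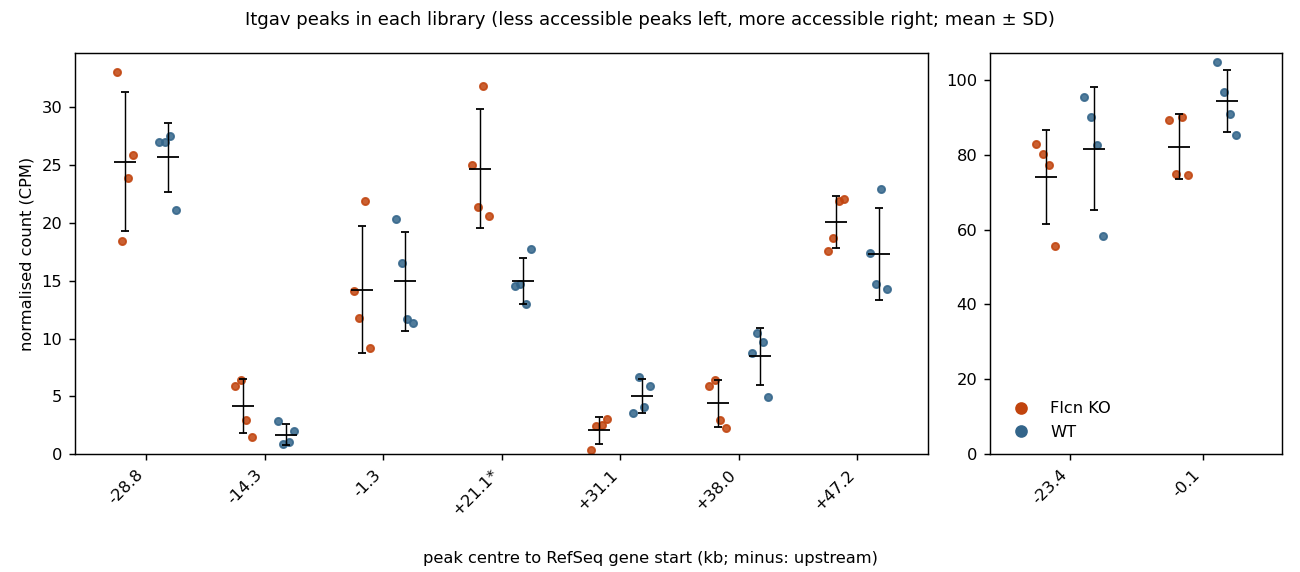
Normalised count (CPM) of each Itgav peak in the 4 Flcn KO libraries (left of each pair) and the 4 WT libraries (right), with mean and SD, ordered by distance of the peak centre from the RefSeq start; an asterisk marks an adjusted p below 0.05. At the asterisked peak, 21.1 kb downstream, all Flcn KO libraries lie above all WT libraries, while at 31.1 kb they all lie below.

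Itga4, the chain shared by the gut-homing and VCAM-binding integrins, had 10 tested peaks and no call. Its start-site peak, at 79254623 to 79255622 of chromosome 2, is the widest member peak at 1000 bp and covers the whole stretch printed above. It had 73.7, 81.2, 85.5 and 103 CPM in Flcn KO, against 89.9, 83.4, 82.4 and 76.5 CPM in WT. Neither group stood apart (edgeR log2 fold change 0.04, SE 0.11, 95% interval -0.18 to 0.25, adjusted p = 0.934). The fitted sign turned without Flcn KO replicate 4 or WT replicate 4. A peak centred 10.4 kb downstream of the start had 12.9, 17.6, 17.4 and 15.2 CPM in Flcn KO, against 11, 12, 9.18 and 11.1 CPM in WT. All Flcn KO libraries were above all WT libraries there, yet the peak did not pass (log2 fold change 0.54, SE 0.22, adjusted p = 0.255).

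Itgae, which encodes the alpha chain CD103, had 7 tested peaks, no call and no peak over either end of the gene. Its most accessible peak was also the one with its lowest p. That peak, at 73094284 to 73094991 of chromosome 11 and 3.78 kb inside an end of the gene, had 17.6, 12.3, 6.46 and 7.62 CPM in Flcn KO, against 9.55, 6.25, 4.59 and 2.95 CPM in WT. Flcn KO replicates 1 and 2 lay above every WT library, and replicates 3 and 4 lay within the WT range. The log2 fold change was 0.92 (SE 0.33, edgeR adjusted p = 0.161); it was between 0.58 and 1.27 over all alternatives. A peak 1.05 kb outside the gene had 1.96, 2.67, 2.49 and 2.67 CPM in Flcn KO, against 2.91, 4.46, 3.82 and 4.43 CPM in WT, a set of libraries that did not overlap at a low level (log2 fold change -0.68, SE 0.44, adjusted p = 0.558). One further peak inside the Itgae span lies equally inside the gene Haspin and is assigned to Haspin by its nearer end.

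Itgal, the LFA-1 alpha chain, had 4 tested peaks. The peak covering an end of the gene, at 127295988 to 127296464 of chromosome 7, had 21.1, 15.5, 21.9 and 13.3 CPM in Flcn KO, against 22.4, 17.8, 18.4 and 14.8 CPM in WT. The groups overlapped throughout (edgeR log2 fold change -0.02, SE 0.20, 95% interval -0.41 to 0.38, adjusted p = 0.987), and the sign turned in 4 of the alternatives. The lowest p of the gene belonged to a peak 10.6 kb outside it, with 16.4, 24.0, 18.9 and 14.5 CPM in Flcn KO, against 14.3, 11.6, 17.3 and 14.8 CPM in WT. This too was not called (log2 fold change 0.36, SE 0.21, adjusted p = 0.51).

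The beta chains held 17 tested peaks and 0 calls, with 0 higher and 1 lower at an unadjusted p under 0.05 and 0 calls by DESeq2 or limma-voom. Itgb2, the beta chain of LFA-1, had its most accessible peak at 77536796 to 77537744 of chromosome 10, inside the gene. It had 39.1, 34.2, 43.8 and 35.1 CPM in Flcn KO, against 38.6, 38.8, 30.6 and 34.9 CPM in WT, which overlapped (edgeR log2 fold change 0.09, SE 0.14, 95% interval -0.19 to 0.37, adjusted p = 0.866). The peak at an end of Itgb2 had 37.1, 27.8, 32.8 and 30.1 CPM in Flcn KO, against 44.2, 41.9, 33.1 and 32.5 CPM in WT. Only Flcn KO replicates 1 and 3 reached the WT range there (log2 fold change -0.24, SE 0.15, adjusted p = 0.544). The peak with the lowest p, 8.64 kb from an end, had 27.4, 19.2, 16.9 and 18.3 CPM in Flcn KO, against 14.9, 21.4, 14.8 and 13.3 CPM in WT. The groups overlapped because WT replicate 2 exceeded 3 of the Flcn KO libraries (log2 fold change 0.35, SE 0.21, adjusted p = 0.499).

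Itgb1 is the common beta chain of matrix-binding integrins. Its start-site peak, at 128685378 to 128685892 of chromosome 8, had 17.0, 17.6, 19.4 and 21.3 CPM in Flcn KO, against 21.6, 19.2, 18.9 and 20.2 CPM in WT. The groups overlapped (edgeR log2 fold change -0.09, SE 0.18, 95% interval -0.45 to 0.27, adjusted p = 0.9). A peak 39.8 kb outside the gene held 6, 6, 6 and 0 counts in Flcn KO, against 14, 13, 16 and 14 in WT. All Flcn KO libraries were below all WT libraries, at a level of few reads (log2 fold change -1.53, SE 0.57, adjusted p = 0.184). The peak 42.2 kb away was 1 of the 2 member peaks left untested for low counts.

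Itgb7, the partner of both Itgae and Itga4, had 4 tested peaks, all within the gene's span. The most accessible, at 102225132 to 102225655 of chromosome 15, had 13.1, 8.55, 27.1 and 22.1 CPM in Flcn KO, against 18.3, 18.5, 15.3 and 9.84 CPM in WT. The Flcn KO libraries spread more widely than the WT libraries and enclosed them (edgeR log2 fold change 0.17, SE 0.27, adjusted p = 0.865), and the sign turned without Flcn KO replicate 3. The peak centred 0.902 kb downstream of the start had 11.7, 7.48, 12.4 and 7.62 CPM in Flcn KO, against 14.9, 9.37, 10.2 and 12.1 CPM in WT (log2 fold change -0.23, SE 0.25, adjusted p = 0.791). At the start-site peak the means were 10.5 ± 1.3 CPM in Flcn KO and 9.64 ± 2.05 CPM in WT (SD, n = 4 each). None of the Itgb7 peaks separated the groups.

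Alcam held the lower calls, 3 of 9 tested peaks (33.3%, beside 1.02% called lower over all tested peaks). Nothing is read from that difference, since the gene was chosen on this comparison. The called peak farthest inside the gene, at 52292549 to 52293104 of chromosome 16 and 160.3 kb downstream of the start, had 6.26, 2.67, 2.98 and 4.57 CPM in Flcn KO, against 8.30, 14.3, 9.18 and 9.84 CPM in WT. No Flcn KO library reached the lowest WT library. Its accessibility fell to 0.403 of the WT level (edgeR log2 fold change -1.31, SE 0.32, adjusted p = 0.0145). The call ended without Flcn KO replicate 2 or 3 or WT replicate 2, with adjusted p-values of 0.0733, 0.0663 and 0.119.

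The called peak at 52418433 to 52418982, 34.4 kb downstream of the start, had 4.30, 3.21, 2.73 and 3.05 CPM in Flcn KO, against 5.40, 18.7, 5.61 and 12.3 CPM in WT. All Flcn KO libraries were lower, but the WT libraries spread more than 3-fold, with replicates 1 and 3 close to Flcn KO replicate 1. The log2 fold change was -1.63 (SE 0.37, edgeR adjusted p = 0.00819), and it was -1.20 with an adjusted p of 0.145 without WT replicate 2. By limma-voom with sample weights it was -1.46 with an adjusted p of 0.0828, which does not pass.

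Upstream of Alcam, the third called peak lies 17.1 kb outside the gene, at 52470204 to 52470657. It had 36.8, 31.5, 31.6 and 33.5 CPM in Flcn KO, against 46.5, 63.1, 43.3 and 41.8 CPM in WT. The Flcn KO libraries lay close together and below all WT libraries (edgeR log2 fold change -0.55, SE 0.14, adjusted p = 0.0315). Its call ended in 6 alternatives, with the highest adjusted p, 0.254, and the smallest change, -0.40, without WT replicate 2.

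A run of 3 further peaks lies between 7.30 and 9.80 kb downstream of the Alcam start, the closest pair 260 bp apart. The peak at 52443116 to 52443457 held 18, 6, 0 and 0 counts in Flcn KO, against 22, 36, 20 and 24 in WT. Flcn KO replicate 1 came close to the WT libraries on its counts, while replicates 3 and 4 held none, and the peak did not pass (edgeR log2 fold change -2.0, SE 0.57, adjusted p = 0.0568). The neighbour starting at 52443718 held 16, 4, 4 and 4 counts in Flcn KO, against 13, 20, 8 and 14 in WT, so Flcn KO replicate 1 lay inside the WT range (log2 fold change -0.85, SE 0.52, adjusted p = 0.529). The peak starting at 52445679 was left untested at the count minimum and held 6, 4, 2 and 2 counts in Flcn KO, against 18, 41, 9 and 15 in WT. The first of these 3 peaks was called lower with no low-count filter, with the replicate block, by limma-voom and without Flcn KO replicate 1. The last was called lower with no low-count filter, without any 1 Flcn KO library and without WT replicate 3.

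The start-site peak of Alcam, at 52452900 to 52453439, covers the whole stretch printed above and was the most accessible of all member peaks. It had 167, 144, 160 and 181 CPM in Flcn KO, against 163, 181, 189 and 187 CPM in WT. The groups overlapped (edgeR log2 fold change -0.15, SE 0.09, 95% interval -0.32 to 0.03, adjusted p = 0.538), and the change stayed between -0.19 and -0.09 over all alternatives. The peak centred 141.8 kb downstream pointed upward instead, with 18.4, 17.6, 18.4 and 22.9 CPM in Flcn KO, against 9.96, 18.3, 12.2 and 14.3 CPM in WT (log2 fold change 0.49, SE 0.21, adjusted p = 0.298). Set against each library's own start-site peak, the 6 peaks inside the gene and off its start held 22, 19, 16 and 18.1 counts per 100 start-site counts in Flcn KO, against 21.3, 40.2, 19.3 and 26.4 in WT. WT replicate 2 was far above the others on this ratio, and Flcn KO replicate 1 lay within the WT range.

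**Figure D3:**
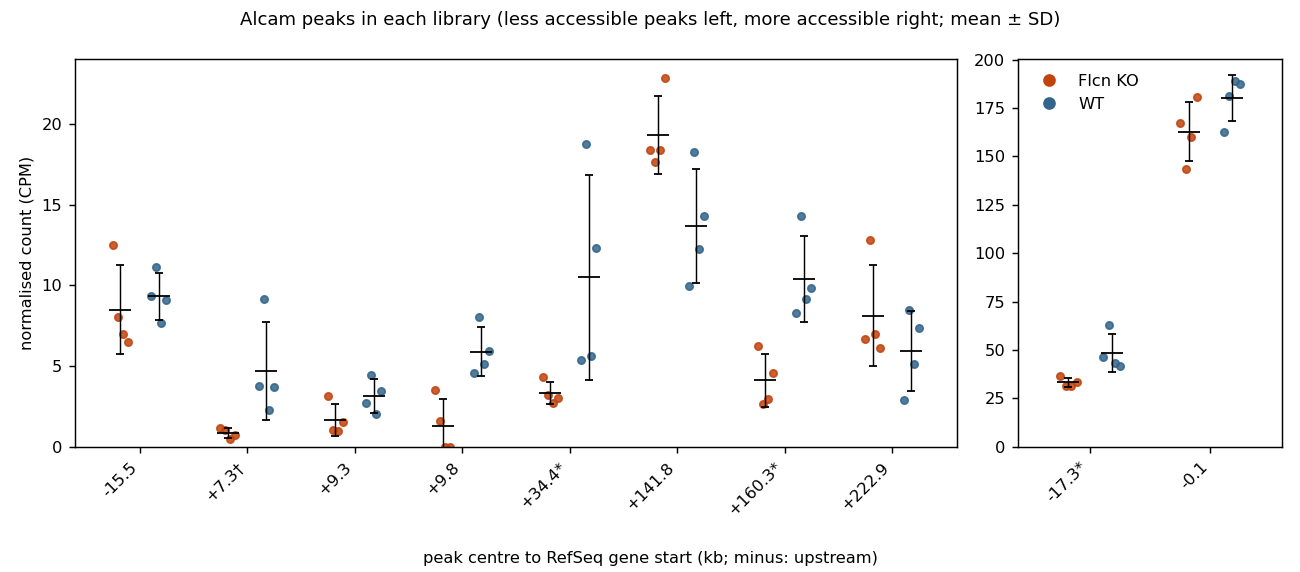
Normalised count (CPM) of each Alcam peak in the 4 Flcn KO libraries (left of each pair) and the 4 WT libraries (right), with mean and SD, ordered by distance of the peak centre from the RefSeq start; an asterisk marks an adjusted p below 0.05 and a dagger an untested peak. The start-site peak, at 144 to 181 CPM in Flcn KO and 163 to 189 CPM in WT, overlaps between the groups, while the 3 asterisked peaks do not.

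Cd6, the T cell partner of ALCAM, had 12 tested peaks and no call by edgeR, DESeq2 or limma-voom. Its most accessible peak, at 10787377 to 10787745 of chromosome 19 and 1.59 kb outside the gene, had 12.9, 16, 17.4 and 13.0 CPM in Flcn KO, against 15.4, 15.2, 11.7 and 11.8 CPM in WT. These overlapped (edgeR log2 fold change 0.13, SE 0.22, adjusted p = 0.875). The peak over an end of Cd6, at 10829534 to 10830205, had 9.58, 8.02, 7.46 and 9.53 CPM in Flcn KO, against 10.2, 15.2, 13.8 and 13.8 CPM in WT. All Flcn KO libraries were below all WT libraries, with WT replicate 1 just above the highest of them (log2 fold change -0.61, SE 0.24, adjusted p = 0.227). The other Cd6 peaks lay between -0.39 and 0.64.

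Cd44, with 15 tested peaks the gene with the most, had no call by edgeR, DESeq2 or limma-voom and none at an unadjusted p under 0.05. In Flcn KO 11 of its peaks had a fitted change above 0. The most accessible, at 102848921 to 102849397 of chromosome 2 and 52.5 kb downstream of the start, had 46.1, 42.2, 54.2 and 68.6 CPM in Flcn KO, against 46.1, 41.9, 45.4 and 42.3 CPM in WT. Flcn KO replicates 1, 3 and 4 lay above all WT libraries, replicate 1 by less than the rounding shown. Replicate 2 lay within the WT range (edgeR log2 fold change 0.25, SE 0.14, 95% interval -0.02 to 0.52, adjusted p = 0.46). The start-site peak had 20.9, 19.8, 21.4 and 20.6 CPM in Flcn KO, against 23.7, 15.2, 15.0 and 17.2 CPM in WT, enclosed by the WT range. The lowest p of the gene belonged to a peak 40.5 kb outside it that held 24, 18, 20 and 8 counts in Flcn KO, against 2, 6, 20 and 10 in WT, with WT replicate 3 as high as the Flcn KO libraries (log2 fold change 0.96, SE 0.49, adjusted p = 0.419).

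By position, 9 of the 83 tested member peaks covered a RefSeq start or an end of their gene, 48 lay inside the gene away from these and 26 outside it. The 9 peaks at starts and ends had a median level of 19.4 CPM over the 8 libraries, against 6.90 CPM inside and 9.02 CPM outside, and 0 of them were called by edgeR, DESeq2 or limma-voom, with 0 higher and 1 lower at an unadjusted p under 0.05. Calls numbered 3 inside and 1 outside. The range of fitted changes at starts and ends was -0.61 to 0.21, against -2.0 to 0.92 inside and -1.53 to 1.31 outside; the peaks at starts and ends also had more counts. Among the 6 peaks over a RefSeq start, compared per kb of peak, the Alcam start stood highest with 302 CPM in Flcn KO and 334 CPM in WT, followed by the starts of Itgav (86.9 in Flcn KO and 99.8 in WT) and Itga4 (85.8 in Flcn KO and 83.0 in WT). The Itgb1 start had 36.6 CPM per kb in Flcn KO and 38.7 in WT, the Cd44 start 42.1 in Flcn KO and 36.2 in WT, and the Itgb7 start 30.9 in Flcn KO and 28.3 in WT.

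**Figure D4:**
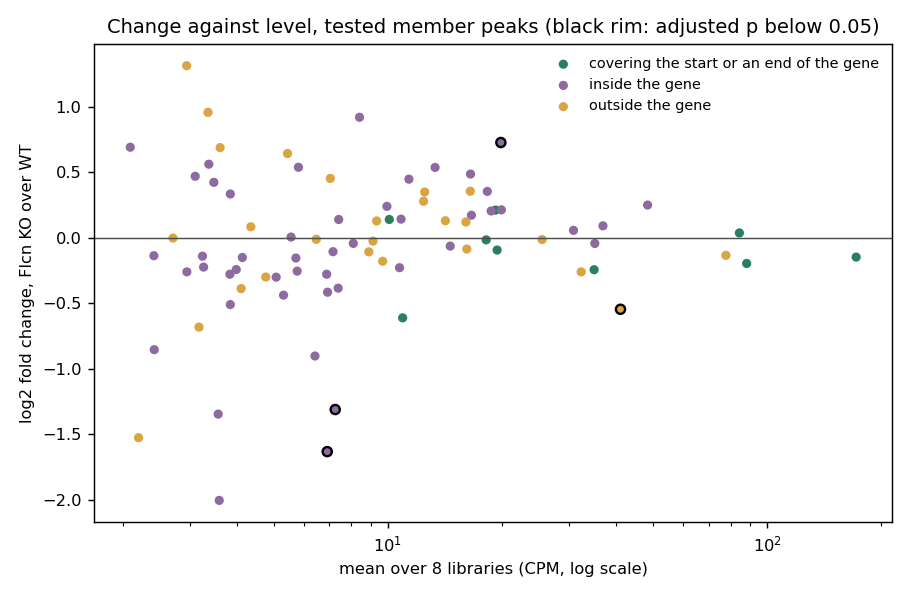
Log2 fold change (Flcn KO over WT) of the 83 tested member peaks against their mean level in CPM on a log axis, coloured by position, with a black rim for an adjusted p below 0.05. The 9 peaks at gene starts and ends lie at 10.1 CPM or more and between -0.61 and 0.21, while the peaks inside and outside the genes span -2.0 to 1.31.

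Summed over all peaks of a gene, tested or not, and scaled to the counts in assigned peaks, 0 of the 10 members were called by edgeR, beside 1.84% of 13491 gene sums (1.16% higher and 0.675% lower), and 1 had an unadjusted p under 0.05. That gene was Alcam, with 277, 232, 251 and 275 CPM in Flcn KO, against 268, 361, 296 and 306 CPM in WT. The groups overlapped at WT replicate 1, and the sum did not pass (edgeR log2 fold change -0.25, SE 0.09, adjusted p = 0.167). The sums of Itgb1 (-0.21, SE 0.13), Itga4 (0.12, SE 0.08) and Cd44 (0.13, SE 0.08) were the next farthest from 0, with adjusted p-values of 0.546, 0.59 and 0.564. The other 6 genes had log2 fold changes between -0.05 and 0.07, and the signs of Itgae, Itgb7, Itgal, Itgb2, Itgav and Cd6 turned when single libraries were left out. The 95% intervals of these 6 reached at most -0.26 and 0.36. A single peak can weigh heavily in such a sum: the Alcam start held 64.3% to 69.6% of the gene's counts in Flcn KO libraries and 53.8% to 67.1% in WT libraries.

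Per kb of peak, the WT order of the sums was Alcam (78.9 ± 10.0 CPM per kb, SD, n = 4), Itgav (58.8 ± 7.53), Itga4 (42.5 ± 0.697), Itgal (38.8 ± 2.38), Cd44 (38.4 ± 3.59), Itgb2 (36.5 ± 4.38), Itgb7 (28.7 ± 3.88), Itgb1 (20.8 ± 2.74), Cd6 (19.6 ± 2.95) and Itgae (14.0 ± 0.705). Itgal, Cd44 and Itgb2 lay within 1 SD of each other, as did Itgb1 and Cd6. In Flcn KO the order was Alcam (66.3 ± 5.52), Itgav (56.5 ± 7.23), Itga4 (46.3 ± 3.43), Cd44 (42.1 ± 3.85), Itgal (40.5 ± 6.47), Itgb2 (35.8 ± 4.34), Itgb7 (29.7 ± 8.17), Cd6 (19.9 ± 1.52), Itgb1 (18 ± 2.05) and Itgae (14.2 ± 1.55), so the neighbours that changed places were those within their spread.

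**Figure D5:**
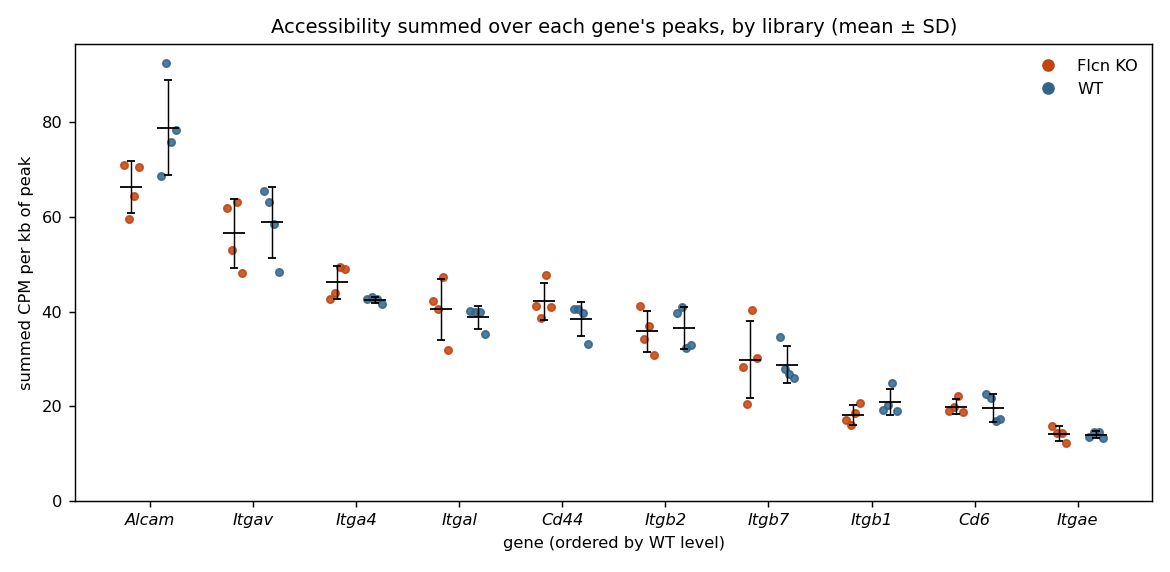
Counts summed over the peaks of each gene, in CPM per kb of peak, in the 4 Flcn KO libraries (left of each pair) and the 4 WT libraries (right), with mean and SD, ordered by the WT mean. Alcam stands highest and Itgae lowest in both groups, and the Flcn KO and WT points overlap for every gene.

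Genes that act with these molecules were counted from a list of 77 genes, of which 66 had a tested peak. Of their 404 tested peaks 2 were called higher and 1 lower in Flcn KO (0.743%, beside 2.37% over all tested peaks). At an unadjusted p under 0.05, 25 were higher and 19 lower, beside 6.87% and 5.99% of all tested peaks. All calls fell in integrin activation and linkage, with 3 of 187 tested peaks. That part of the list holds genes that regulate integrins or link them inside the cell. A peak inside Fyb, which encodes the adaptor ADAP of the T cell receptor-to-integrin path, had 63.0, 61.5, 85 and 75.4 CPM in Flcn KO, against 56.5, 52.6, 54.1 and 46.2 CPM in WT. All Flcn KO libraries lay above all WT libraries (edgeR log2 fold change 0.44, SE 0.12, adjusted p = 0.0423). A peak 48.2 kb from Rap1b, a small GTPase that activates integrins, had 12.9, 24.6, 17.9 and 23.6 CPM in Flcn KO, against 9.76, 12.9, 9.94 and 11.3 CPM in WT (log2 fold change 0.83, SE 0.23, adjusted p = 0.039), with Flcn KO replicate 1 just under the highest WT library. A peak inside Rapgef1, which encodes an exchange factor for Rap1, had 2.54, 3.21, 1.99 and 3.05 CPM in Flcn KO, against 3.94, 8.48, 7.65 and 7.38 CPM in WT (log2 fold change -1.35, SE 0.37, adjusted p = 0.0425). Both higher calls ended without Flcn KO replicate 3 or 4 or any 1 WT library, and the lower call without Flcn KO replicate 2, 3 or 4 or WT replicate 2 or 4.

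The other lists held 0 calls by edgeR, DESeq2 or limma-voom. Among 84 tested peaks of 17 other integrins 8 were higher and 7 lower at an unadjusted p under 0.05, and among 24 peaks of 8 ligands and counter-receptors 0 were higher and 2 lower. Among 109 peaks of 13 other lymphocyte adhesion receptors 6 were higher and 2 lower. Over all tested peaks, 6.87% were higher and 5.99% lower at that threshold. Their median log2 fold changes were -0.07, -0.07 and 0.12, beside 0.00 over all tested peaks.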

How the data were processed

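ATAC-seq libraries of sorted splenic Treg cells, 4 Flcn KO and 4 WT, were grouped by their titles. The authors deposited raw counts per peak over 57199 shared peaks in mm10, with no normalisation. The tools named in the submitters' processing notes are MACS2 2.1.1, bedtools 2.25.0, BWA 0.7.16, SAMtools 1.9, Trimmomatic 0.36 and Picard 2.9.4; the sources used here do not give their roles, duplicate handling, any transposase shift or how peak calls were pooled. Starts were converted to count from 1. Between 88.7% and 92.7% of a library's deposited counts were even, which may mean that read pairs were mostly counted at both ends, so precision is taken from the spread between libraries; the labels call the replicates biological. Chi-square per peak between libraries of one genotype was 2.17 to 3.7, so none was an exact copy of another. Counting at both ends would itself raise this value, so it cannot tell a sample sequenced again from separate samples.

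Peaks were assigned by position to 21887 protein-coding spans of RefSeq (GRCm38.p6), with no exons; strand came from the promoter table. Nearness does not show regulation. Peaks passing filterByExpr (minimum count 10) were compared by edgeR 4.0.16 (R 4.3.3): TMM, robust quasi-likelihood test, genotype as the only term, Benjamini-Hochberg over all tested peaks, threshold 0.05. Counts summed per gene were fitted likewise. SE is the log2 fold change over the square root of F, and 95% intervals are ± 1.96 SE. The test was tried on simulated counts, with large changes set at better-counted peaks only. That trial does not cover peaks of few counts or small changes. Alternatives included DESeq2 1.42.0 and limma 3.58.1. The member genes, the 77-gene list and the markers were chosen with earlier results of these data known. Named peaks are, per gene, the most accessible tested peak, the one with the lowest unadjusted p and every called peak; of the 77 genes, those with a called peak. Other member peaks given singly (further Alcam and Itgav peaks, and non-overlapping or start-site peaks) were chosen after their values were seen.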

Additional observations from a re-analysis of the deposited data

Results flagged for a closer look

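Among the 62 groups of 4 values checked (the named peaks and the gene sums, in each genotype), 3 had 1 library far from the other 3, with a gap to the nearest library, as a share of the whole range, above Dixon's 95% critical value for 4 samples; chance gives about 1 in 20. At the Cd44 peak 40.5 kb outside the gene, a Flcn KO library had 3.05 CPM and the nearest other 4.69 CPM (gap 0.855 of the range). For the gene sum of Itgal in WT, 1 library had 51.4 CPM and the nearest other 58.3 CPM (0.972). For the gene sum of Cd44 in WT, 1 library had 218 CPM and the nearest other 261 CPM (0.878).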

How the results depend on the processing

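The 3 lower and 1 higher member calls became 5 and 1 with no low-count filter. Leaving out 1 library gave 0 to 5 lower and 0 to 1 higher member calls, 217 to 934 lower and 420 to 863 higher peaks over all tested, 38 to 277 lower and 102 to 284 higher gene sums, and 0 to 1 lower and 0 to 4 higher peaks of the 77-gene list. The stricter filter (minimum count 30) gave 282 lower peaks over all tested. The 77-gene list had 0 lower peaks with the stricter filter, the replicate block, limma-voom and counts divided by 2, and 1 higher peak by DESeq2 or limma-voom. The causes were not tested, beyond the fewer peaks tested with the stricter filter. Member gene sums gave 0 calls throughout.

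Of 461 values of the 31 named peaks and gene sums under alternatives, 427 kept direction and side, 15 lost the call and 19 changed sign, none of the last at a called peak. With counts divided by 2 the Itgal peak at a gene end was at 0.0078. Without single libraries it ran from -0.12 to 0.10, the Itga4 start from -0.051 to 0.11 and the most accessible Itgb7 peak from -0.13 to 0.41. The sums ran from -0.030 to 0.098 for Itgae, -0.14 to 0.19 for Itgb7, -0.0061 to 0.17 for Itgal, -0.098 to 0.044 for Itgb2, -0.14 to 0.018 for Itgav and -0.039 to 0.095 for Cd6. Whether same-numbered libraries of the genotypes belong together is not known from the labels. Their deviations correlated at -0.06 to 0.09, and 1 of 4 Flcn KO libraries matched its own number best. Counting noise at low peaks can hide a link in such values, so they do not exclude one. With the replicate as a block there were 4 lower and 1 higher member calls, and 639 lower and 736 higher over all tested peaks. Only peaks inside a gene gave 2 lower and 1 higher call, and keeping ties 3 and 1. Low peaks of few counts limit what these depths show.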
